A study of Homo sapiens with 6 samples.

Results

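AP-1 factors and the feedback inhibitors of the ERK pathway were described here as 10 genes chosen by symbol: the AP-1 subunits FOS, FOSL1, FOSL2, JUN and JUNB, the early response factor EGR1, the MAP kinase phosphatases DUSP4, DUSP5 and DUSP6, and the signalling inhibitor SPRY4. All 10 were among the 59074 listed genes, and all 10 passed the filter of 1 CPM (a gene's reads relative to the total of its library) on the mean level, which left 14294 genes to test. The RNA came from the established human glioblastoma cell lines LN-229 (named LNT229 in the sample titles), T98G and U251, each transfected with non-target siPOOLs (siControl) or with HOTAIRM1-specific siPOOLs (siHOTAIRM1), which are pools of siRNAs, and harvested after 72 h. There was 1 library per cell line and condition, 6 in all, so the replicates of the knock-down are the cell lines. HOTAIRM1 is a long non-coding RNA transcribed from the HOXA locus, and its knock-down was transient and partial.

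AP-1 is a dimer of a FOS family protein with a JUN family protein, or of JUN proteins alone, that binds the sequence TGANTCA and drives genes of proliferation and invasion. Growth factor receptors activate RAS, RAF, MEK and ERK in turn. ERK raises the transcription and stability of several AP-1 subunits and of EGR1, and it also induces its own inhibitors: dual-specificity phosphatases, which take the phosphates off ERK, and Sprouty proteins, which act between the receptor and RAF. The RNA of these genes is widely read as an output of the pathway, which is often active in glioblastoma, but it is not a measurement of ERK activity.

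HOTAIRM1 was at 1.99 CPM in the siControl and 0.952 CPM in the siHOTAIRM1 library of LN-229, at 3.49 and 2.15 CPM in T98G, and at 1.27 and 0.623 CPM in U251. It was lower in the library labelled as knock-down in every cell line, with a mean log2 change of CPM + 1 of -0.54 (SE 0.12, n = 3 cell lines, adjusted p = 0.0146 from limma). The libraries held 52.3 to 104 M reads, and 3 reads, the least taken as detectable, were worth 0.0289 to 0.0574 CPM. The glial and neural markers were uneven: VIM was at 254 CPM or more in all libraries, NES was at 0.866 to 0.956 CPM in T98G against 329 to 507 CPM in the other cell lines, and GFAP passed 1 CPM in U251 alone. S100B was at 0 in T98G. Of 8 markers of blood, vessel, epithelial and neural cell types, 0 to 2 per library reached 1 CPM.

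The starts of the genes were read from RefSeq (GRCh38.p14) in windows of 300 bases, from 250 bases before to 50 bases after the start. Windows were matched for 7 of the 10 genes, with FOSL1, DUSP4 and DUSP5 without an entry. Both strands were searched for the AP-1 site TGANTCA, the longer site TGANNTCA that JUN with ATF2 binds, the CArG box of SRF, the ETS site CCGGAAG, the EGR site GCGNGGGCG and the TATAAA box. The sequences with the matches are printed for sites of AP-1, whose RNA is described here, and of SRF, which ERK signalling acts on through its ETS partners. EGR1, on chromosome 5, held 2 CArG boxes, at -105 to -96 and at -83 to -74 from the start, where 1.29% of 35116 windows held at least 1. JUN, on chromosome 1, held TGANNTCA at -67 to -60, as 11.5% of windows did. FOSL2, on chromosome 2, held TGANTCA at 5 to 11, counted from 1 at the start, as 7.71% of windows did. This RefSeq start lies inside the GENCODE span of FOSL2 given below, which begins upstream of the window, at 28392448. Capitals mark the matches.
EGR1 (chr5:138465349-138465478, plus strand, -130 to -1): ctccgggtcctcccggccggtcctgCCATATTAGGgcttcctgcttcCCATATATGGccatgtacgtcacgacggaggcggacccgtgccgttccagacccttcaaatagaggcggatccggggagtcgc
JUN (chr1:58784048-58784167, minus strand, -120 to -1): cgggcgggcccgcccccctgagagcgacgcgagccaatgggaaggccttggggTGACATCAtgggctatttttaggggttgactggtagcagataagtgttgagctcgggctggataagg
FOSL2 (chr2:28392851-28392877, plus strand, -7 to 20): tgccattgtagTGACTCAtctcgggca
GCGNGGGCG occurred in 2 of the 7 windows (EGR1 and SPRY4, against 9.43% of all windows), TATAAA in 2 (FOS at -33 and JUNB at -31, against 11.5%), and CCGGAAG in 0 (10.3% of all). DUSP6 held none of the 6 motifs. These matches are letters in a window and were not tested for binding.

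The main difference among the 10 genes lay between the cell lines. DUSP6, SPRY4 and FOSL1 were highest in LN-229, EGR1 was highest in T98G, and FOSL2 and JUN were highest in U251. Each was above both other cell lines at an adjusted p under 0.05 (limma on log2(CPM + 1) with the condition in the model and 2 libraries per cell line). These were 3, 1 and 2 of the 10 genes in LN-229, T98G and U251, beside 13.4, 12.3 and 25.1% of all genes tested. The FOSL1 call was lost in some alternatives given below. Between T98G and LN-229, 6 of the 10 genes differed, 2 higher and 4 lower in T98G, where 54.9% of all genes tested did (24.1% higher, 30.8% lower). Between U251 and LN-229, 8 differed, 2 higher and 6 lower in U251, against 60.6% (36.7% higher, 23.9% lower). Between U251 and T98G, 8 differed, 3 higher and 5 lower in U251, against 64.2% (41.04% higher, 23.1% lower). The total counts past the threshold were thus near the background. By direction they were less so: 6 and 5 of the 10 were lower in U251 than in LN-229 and T98G, beside 23.9 and 23.1% of all genes. The split over all genes turned with the scaling: of the calls, 60.5% were higher in U251 than in LN-229 and 64.0% higher than in T98G, but 38.1 and 40.8% with each library rescaled to the sum of its listed genes. Since the libraries of a cell line were its siControl and siHOTAIRM1 library, the p-values measure the difference between lines against the spread of the response to knock-down, and nothing shows that the cultures were repeated. In bulk RNA, fewer cells with an RNA and less of it per cell cannot be told apart.

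**Figure D1:**
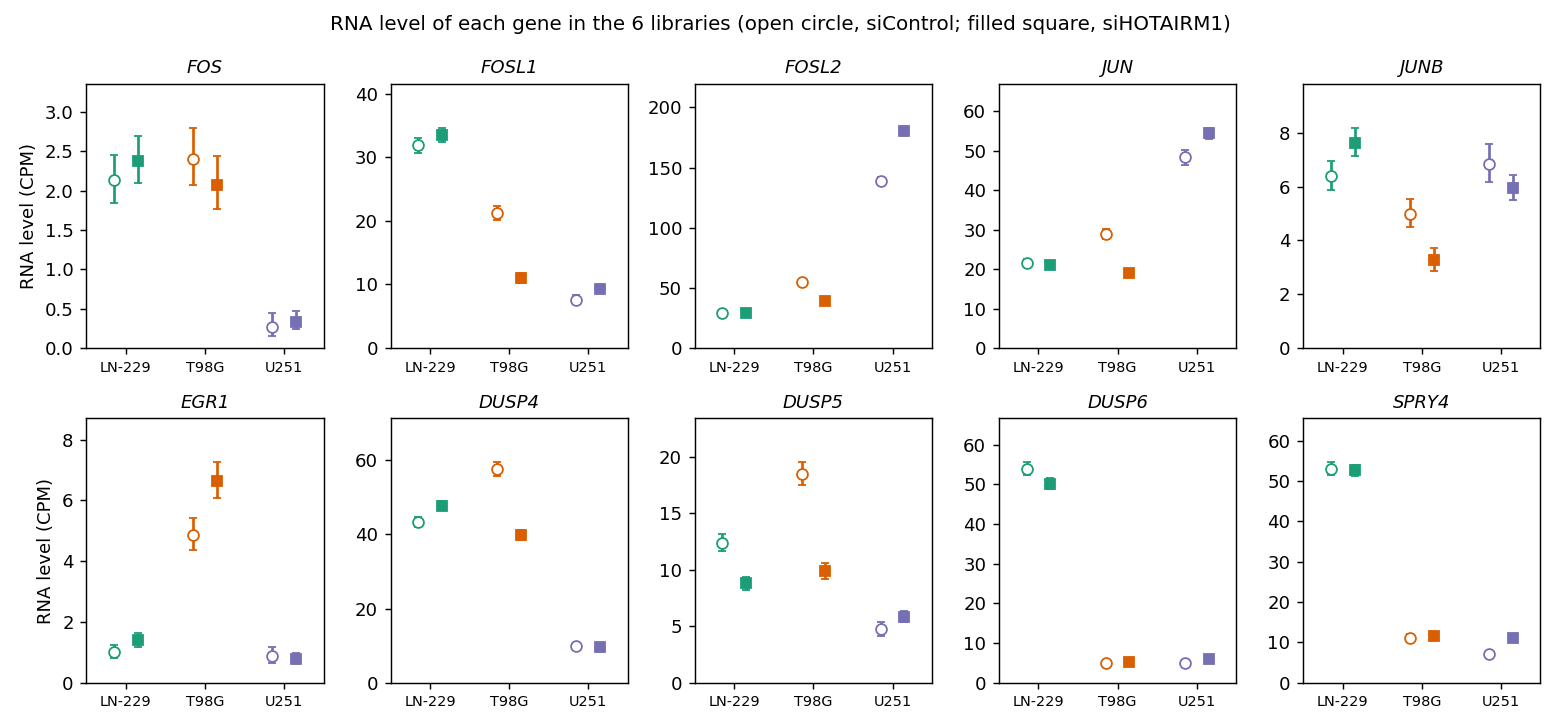
RNA level (CPM, linear axis from 0) of each gene by cell line, with 1 point per library: open circles are siControl, filled squares siHOTAIRM1, and bars the 95% Wilson interval of the reads, which covers counting error only. DUSP6 lay at 50.1 and 54.0 CPM in LN-229 and at 4.98 to 5.90 CPM in the other 4 libraries, and FOSL2 lay at 139 and 180 CPM in U251 and at or under 55.2 CPM elsewhere.

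FOSL1 (chromosome 11, 65892049 to 65900573 on hg38) encodes FRA-1, a long-lived FOS family subunit that ERK signalling stabilises. It was at 31.9 CPM (siControl) and 33.5 CPM (siHOTAIRM1) in LN-229, at 21.2 and 11 CPM in T98G, and at 7.60 and 9.33 CPM in U251. The cell lines did not overlap, and LN-229 exceeded T98G by 1.04 on the log2 scale (SE 0.20, adjusted p = 4.07e-05 from limma) and T98G exceeded U251 by 0.79 (SE 0.20, adjusted p = 0.000916 from limma). The place of T98G in this order rested on single libraries and on the filter on low genes, without which its differences from LN-229 and U251 had an adjusted p of 0.0613 and 0.113 (limma): without its siHOTAIRM1 library, T98G minus LN-229 was -0.52 (adjusted p = 0.0917 from limma), and U251 minus T98G was -0.27 without the siControl library of T98G (adjusted p = 0.332 from limma) and -0.46 without that of U251 (adjusted p = 0.109 from limma).

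FOSL2 (chromosome 2, 28392448 to 28417317) encodes FRA-2, the other FOS family protein without a transactivation domain like that of FOS. Its order was the opposite one. FOSL2 was at 29.0 and 29.2 CPM in LN-229, at 55.2 and 39.4 CPM in T98G and at 139 and 180 CPM in U251, siControl first. U251 exceeded T98G by 1.74 (SE 0.19, adjusted p = 7.69e-10 from limma). T98G exceeded LN-229 by 0.66 (SE 0.19, adjusted p = 0.00366 from limma), a call that was lost without the siControl library of T98G (0.33, adjusted p = 0.240), without that of LN-229 (0.63, adjusted p = 0.0779) without the siHOTAIRM1 library of LN-229 (0.69, adjusted p = 0.0598) and without the filter on low genes (adjusted p = 0.0973, all from limma).

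FOS (chromosome 14, 75278826 to 75282230), the classical short-lived subunit that serum induces within minutes, was low throughout. It was at 2.13 and 2.38 CPM in LN-229, 2.404 and 2.08 CPM in T98G, and 0.268 and 0.336 CPM in U251, the last pair resting on 14 and 34 reads. LN-229 and T98G did not differ beyond their spread (0.01, adjusted p = 0.974), and T98G exceeded U251 by 1.31 (SE 0.15, adjusted p = 1.84e-09, both from limma).

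JUN (chromosome 1, 58776845 to 58784048) encodes the partner that all FOS proteins can use. It was at 21.5 and 21.1 CPM in LN-229, 28.9 and 19.1 CPM in T98G, and 48.3 and 54.4 CPM in U251. Both U251 libraries were above the other 4, with a difference from T98G of 1.09 (SE 0.18, adjusted p = 3.54e-06 from limma), while T98G and LN-229 overlapped (0.13, adjusted p = 0.551 from limma). JUNB (chromosome 19, 12791486 to 12793315), a JUN protein that activates more weakly, was at 6.39 and 7.64 CPM in LN-229, 5.00 and 3.27 CPM in T98G, and 6.83 and 5.95 CPM in U251. T98G was below U251 by 0.54 (SE 0.18, adjusted p = 0.0101 from limma) and below LN-229 (-0.66, SE 0.18, adjusted p = 0.00272 from limma), and LN-229 and U251 overlapped (adjusted p = 0.608 from limma). Both calls were lost without the siHOTAIRM1 library of T98G (U251 minus T98G 0.29, adjusted p = 0.385; T98G minus LN-229 -0.40, adjusted p = 0.252), and the second also without the siHOTAIRM1 library of LN-229 (-0.38, adjusted p = 0.244, all from limma). Without the filter on low genes, JUNB had an adjusted p of 0.105 against U251 and 0.0704 against LN-229 (limma). Exons of JUNB overlap those of HOOK2 on the opposite strand in GENCODE v44. HOOK2 reached 2.99 CPM at most, and reads of the pair cannot be told apart with this library kit, which does not keep the strand.

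Levels of different genes were compared only per kilobase of the canonical transcript in GENCODE v44. On that scale, FOSL1 made up 51.2% of the summed RNA of FOS, FOSB, FOSL1, FOSL2, JUN, JUNB and JUND in the siControl library of LN-229, 35.2% in that of T98G and 8.82% in that of U251. FOSL2 made up 11.8, 23.2 and 40.8%, and JUN 18.1, 25.1 and 29.3%, in the same order. So FOSL1 held the largest share in LN-229 and T98G and FOSL2 in U251. In T98G this order rests on the transcript lengths used, 1702 bases for FOSL1 and 6713 for FOSL2, since the CPM of FOSL2 were the higher ones there. FOS held at most 4.31% in any library, and FOSB at most 1.15%. In the siHOTAIRM1 libraries the share of FOSL1 was 50.03, 28.3 and 8.63%. The largest share was again that of FOSL1 in LN-229 and T98G and of FOSL2 in U251. In that library of T98G, FOSL2 and JUN were close behind FOSL1, at 25.6% each. The sum of the 7 genes was 36.6 and 39.4 CPM per kb in LN-229, 35.4 and 22.9 in T98G, and 50.6 and 63.5 in U251, siControl first. With 1 library for each value, these shares carry no test.

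**Figure D2:**
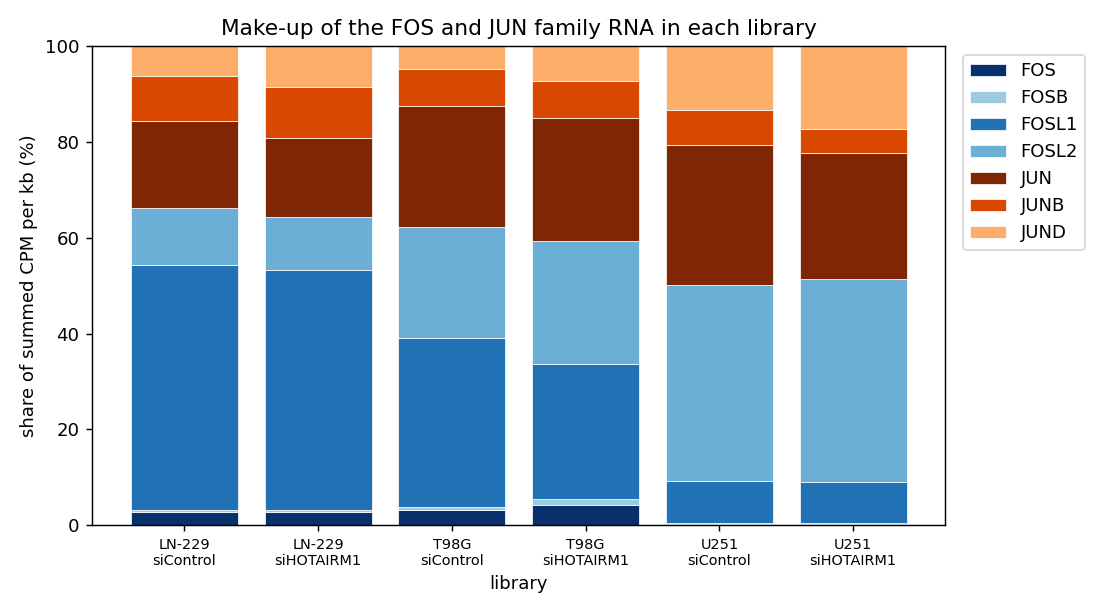
Share (%) of each FOS and JUN family gene in their summed CPM per kb of transcript, with 1 bar per library, FOS family in blue and JUN family in brown and orange. FOSL1 fills 50.03 to 51.2% of the LN-229 bars and 8.63 to 8.82% of the U251 bars, and FOSL2 fills 11.05 to 11.8% and 40.8 to 42.3%.

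EGR1 (chromosome 5, 138465479 to 138469303), a zinc finger factor that SRF and its ETS partners switch on early after a growth signal, was the one gene of the 10 that was above both other cell lines in T98G. It was at 1.008 and 1.40 CPM in LN-229, 4.87 and 6.63 CPM in T98G and 0.880 and 0.800 CPM in U251. T98G exceeded LN-229 by 1.61 (SE 0.16, adjusted p = 7.52e-11 from limma), and LN-229 and U251 did not differ beyond the spread (0.26, adjusted p = 0.165 from limma). Per kilobase, EGR1 lay below FOSL2 and JUN in every library. It was at 1.55 CPM per kb in the siControl library of T98G, its highest cell line, where FOSL2 was at 8.22 and JUN at 8.87.

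DUSP6 (chromosome 12, 89347235 to 89352501) encodes the cytoplasmic phosphatase that acts on ERK and not on JNK or p38. It showed the widest separation of the 10 genes: 54.0 and 50.1 CPM in LN-229, against 4.98 and 5.21 CPM in T98G and 5.09 and 5.90 CPM in U251. LN-229 exceeded U251 by 3.03 on the log2 scale (SE 0.18, adjusted p = 3.44e-17 from limma), and U251 and T98G did not differ beyond their spread (0.09, adjusted p = 0.679 from limma). SPRY4 (chromosome 5, 142310427 to 142326455), which inhibits the path from receptor tyrosine kinases to ERK, had the same highest cell line, with 53.0 and 52.6 CPM in LN-229, 11.2 and 11.6 CPM in T98G and 7.21 and 11.1 CPM in U251. LN-229 exceeded T98G by 2.12 (SE 0.18, adjusted p = 1.40e-12 from limma), and T98G and U251 gave an adjusted p of 0.128 (limma).

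The nuclear phosphatases followed another order. DUSP4 (chromosome 8, 29333064 to 29350684), which acts on ERK, JNK and p38, was at 43.2 and 47.7 CPM in LN-229, 57.5 and 39.8 CPM in T98G, and 9.89 and 9.78 CPM in U251. DUSP5 (chromosome 10, 110497907 to 110511533), which is specific to ERK, was at 12.4 and 8.80 CPM in LN-229, 18.5 and 9.90 CPM in T98G, and 4.73 and 5.85 CPM in U251. For both, LN-229 and T98G overlapped (adjusted p = 0.744 and 0.140 from limma) and U251 was lowest. LN-229 exceeded U251 by 2.10 for DUSP4 (SE 0.18, adjusted p = 2.10e-12) and by 0.87 for DUSP5 (SE 0.20, adjusted p = 0.000292, both from limma). The DUSP5 call was lost without the siControl library of U251 (-0.42, adjusted p = 0.141) or of LN-229 (-0.79, adjusted p = 0.0538) and without the filter on low genes (adjusted p = 0.0765, all from limma, U251 minus LN-229).

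Other genes of the pathway were taken from lists written by symbol. Of 18 further ERK feedback and output genes tested, 6 (33.3%) were above both other cell lines in LN-229, where 13.4% of all genes tested were, 1 was so in T98G (12.3% of all) and 4 in U251 (25.1% of all). The 6 were SPRY2, SPRED1, SPRED2, CCND1, ETV1 and ETV4, named after their values were seen. SPRY2, a second Sprouty, was at 44.3 and 56.4 CPM in LN-229, 6.21 and 6.93 CPM in T98G and 10.4 and 12.8 CPM in U251, and ETV4, an ETS factor whose RNA follows ERK signalling, was at 16.2 and 19.1, 5.13 and 3.60, and 0.746 and 0.919 CPM. The list was not uniform: SPRY1 was lowest in LN-229, at 0.838 and 1.45 CPM, against 2.88 to 7.06 CPM in the other cell lines. The 4 genes highest in U251 were DUSP1, IL17RD, DUSP8 and EPHA2, and the 1 in T98G was EPHA4, also named after their values were seen. IL17RD, for example, was at 5.99 and 3.88 CPM in LN-229, 1.82 and 2.05 CPM in T98G and 26.6 and 20.5 CPM in U251.

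Among 17 growth factor early response genes, 6 were above both other cell lines in LN-229 and 6 in T98G (35.3% each, beside 13.4 and 12.3% of all genes), and 4 in U251 (23.5%, beside 25.1%). NR4A1, an orphan nuclear receptor induced early, was at 39.1 and 33.5 CPM in LN-229 and at 0.702 to 1.11 CPM in the other 4 libraries, a gene picked out after its values were seen. TGFA, a ligand of the EGF receptor picked out in the same way, was at 551 and 488 CPM in LN-229, 0.478 and 0.536 CPM in T98G, and 122 and 170 CPM in U251. EREG, another such ligand, was at 15.02 and 9.75 CPM in LN-229 and at or under 1.40 CPM elsewhere. These were 2 of the 4 ligands tested, and the others did not share this order. EGF itself was above both other cell lines in T98G and lowest in LN-229, at 1.91 to 2.39 CPM against 9.61 to 21.7 CPM elsewhere. HBEGF in LN-229 did not differ from T98G (adjusted p = 0.939) or U251 (adjusted p = 0.746, both from limma). Of the 27 genes of the cascade from GRB2 to the ELK factors, 5 were above both other cell lines in each line (18.5%, beside 13.4, 12.3 and 25.1% of all genes in LN-229, T98G and U251).

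**Figure D3:**
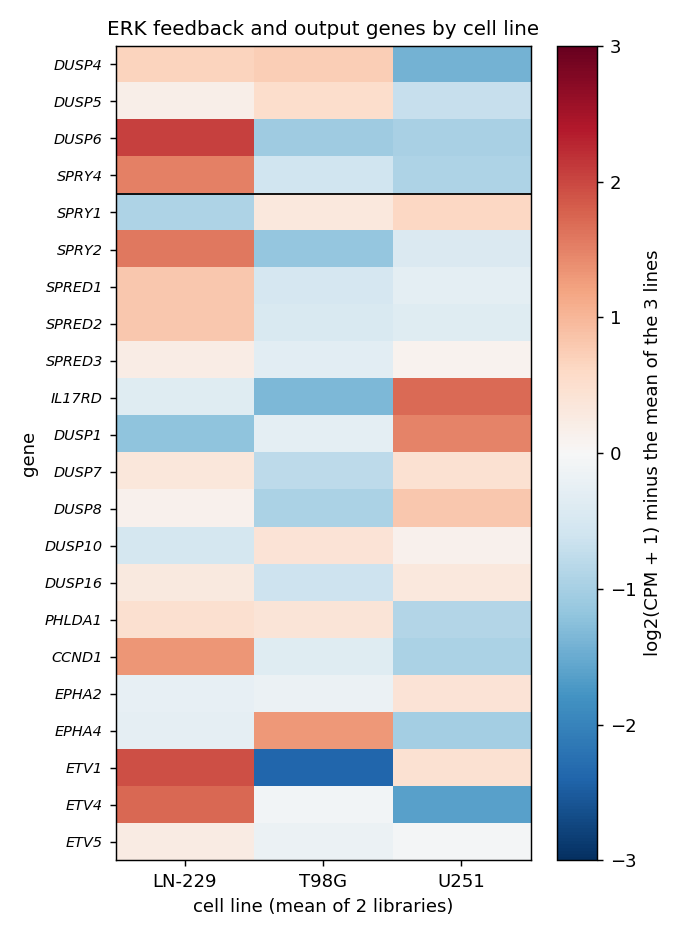
Mean log2(CPM + 1) of each ERK feedback or output gene in a cell line (2 libraries) minus its mean over the 3 cell lines, with DUSP4, DUSP5, DUSP6 and SPRY4 above the line and the 18 listed genes below it. Red is higher and blue lower: DUSP6, SPRY4, SPRY2, CCND1, ETV1 and ETV4 are red in LN-229, while SPRY1 and DUSP1 are blue there.

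The genes most like DUSP6 over the 6 libraries by Pearson's r of log2(CPM + 1) were PODXL2, NELL2, DNAH9, LRRC15 and CDH12, each with r of at least 0.999. All 5 were detected mainly in LN-229: PODXL2, for example, was at 14.9 and 15.4 CPM there and at or under 0.208 CPM elsewhere. Since 263 genes reached an r of 0.99, and the 6 libraries come in 3 pairs of one cell line each, this likeness describes genes that are high in LN-229 alone. For FOSL1, 8 genes reached 0.99, and the nearest were EXOSC2, FBXW8, MAFF, CTDP1 and SDC4 (r from 0.991 to 0.994). MAFF, a small MAF protein of the AP-1 superfamily, was at 12.1 and 11.4 CPM in LN-229, 5.37 and 2.71 CPM in T98G, and 1.07 and 1.56 CPM in U251, so it too was lower in the siHOTAIRM1 library of T98G.

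On knock-down of HOTAIRM1, 0 of the 10 genes had an adjusted p under 0.05 over the 3 cell lines (limma with the cell line as block), where 2.001% of all genes tested did (286 genes, 59 higher and 227 lower). At an unadjusted p under 0.05 there was 1, DUSP5, where 18.3% of all genes stood. DUSP5 had a mean log2 change of -0.34 (SE 0.16, adjusted p = 0.251 from limma), with the same sign in LN-229 and T98G and the opposite sign in U251. The mean changes of the other 9 ran from -0.18 for FOSL1 (SE 0.16) to 0.20 for SPRY4 (SE 0.15), and the median of the 10 was -0.08, beside -0.07 for all genes tested. With 3 cell lines, an exact permutation test of a single gene cannot give a p under 0.25.

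The changes differed in sign between the cell lines more than these means show. In T98G, 7 of the 10 genes were lower in the siHOTAIRM1 library, 6 of them beyond counting error (58.1% of all genes tested), 1 was higher beyond it (7.39% of all), and their median log2 change was -0.48. In U251, 7 were higher, 6 of them beyond counting error (30.3% of all), 1 was lower beyond it (39.4% of all), and the median was 0.17. In LN-229, 6 were higher, 4 of them beyond counting error (26.9% of all), 2 were lower beyond it (21.3% of all), and the median was 0.04. The median of all genes tested was -0.19 in T98G, where 79.3% of genes were lower, -0.03 in U251 and 0.01 in LN-229. The combination of lower in T98G and higher in U251 was held by 5 of the 10 genes, FOS, FOSL1, FOSL2, JUN and DUSP5, and by 30.3% of all genes tested. The opposite one was held by 1, EGR1, and by 4.69% of all genes. With 1 library per condition, no change within a cell line and no difference between cell lines could be tested.

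**Figure D4:**
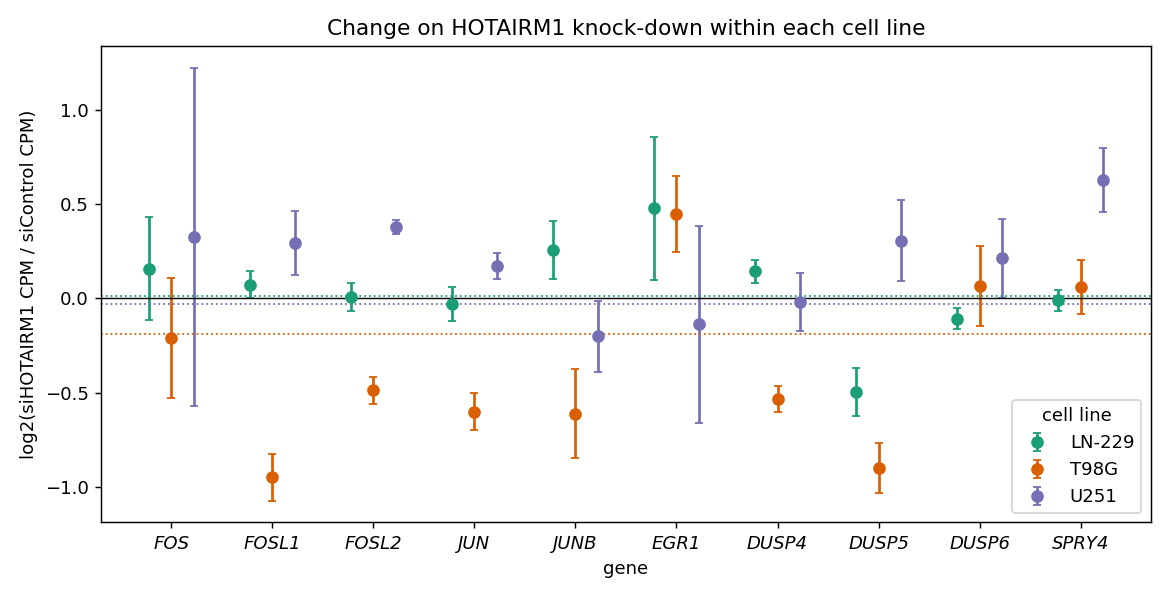
log2 ratio of the siHOTAIRM1 to the siControl CPM of each gene in each cell line, with bars for the 95% interval of counting error and dotted lines for the median change of log2(CPM + 1) of all genes tested in LN-229 (0.01), T98G (-0.19) and U251 (-0.03). In T98G, FOSL1, FOSL2, JUN, JUNB, DUSP4 and DUSP5 lie below the dotted line, and EGR1, DUSP6 and SPRY4 above it.

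In T98G, the FOSL1 level in the siHOTAIRM1 library differed from that of the siControl library by -48.1% (counting interval -52.4 to -43.5%), and DUSP5 by -46.4% (-51.1 to -41.2%). JUN differed by -34.0% (-38.4 to -29.3%), JUNB by -34.5% (-44.5 to -22.7%), DUSP4 by -30.8% (-34.0 to -27.4%) and FOSL2 by -28.7% (-32.0 to -25.1%). Of these 6, FOSL1, JUN, DUSP4 and DUSP5 were past -0.5 on the log2 scale, as 8.26% of all genes tested were. DUSP6 (4.62%, -9.58 to 21.1%) and SPRY4 (4.32%, -5.37 to 15.01%) stayed within counting error, and EGR1 was higher by 36.2% (18.5 to 56.6%). Relative to the median of the genes of T98G, the log2 changes were -0.70 for FOSL1, -0.65 for DUSP5, -0.39 for JUN, -0.33 for DUSP4, -0.30 for JUNB and -0.29 for FOSL2, and 0.24 for DUSP6, 0.25 for SPRY4 and 0.57 for EGR1. FOS was within 0.05 of it. Values that moved with these in T98G were the sum over the listed genes, with a log2 change of -0.23, and the summed markers of other cell types, at 10.2 and 4.50 CPM, of which CD68 made up 7.80 and 2.72 CPM. Their part in the result was not tested.

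In U251, SPRY4 was higher in the siHOTAIRM1 library by 54.5% (counting interval 37.5 to 73.6%), and it was the single one of the 10 genes past 0.5 on the log2 scale, as 6.56% of genes were. FOSL2 was higher by 30.0% (26.6 to 33.6%), DUSP5 by 23.7% (6.67 to 43.6%) and FOSL1 by 22.8% (9.19 to 38.04%). JUN and DUSP6 followed with 12.6% (7.41 to 18.0%) and 15.9% (0.287 to 33.9%), and JUNB alone was lower beyond counting error (-12.9%, -23.6 to -0.759%). The sum over the listed genes had a log2 change of -0.27 in U251, and once each library was rescaled to that sum, the median of all genes was 0.18 and the changes on the log2 scale were 0.84 for SPRY4, 0.64 for FOSL2, 0.52 for FOSL1, 0.51 for DUSP5, 0.43 for JUN and for DUSP6, and 0.06 for JUNB in place of -0.17. On that scale 4 of the 10 were past 0.5, as 20.4% of all genes were. In LN-229, DUSP5 differed by -29.0% (-35.0 to -22.5%) and DUSP6 by -7.10% (-10.7 to -3.37%), and JUNB (19.5%, 7.31 to 33.2%), EGR1 (39.3%, 7.02 to 81.3%), DUSP4 (10.5%, 5.91 to 15.2%) and FOSL1 (5.18%, 0.0806 to 10.5%) were higher beyond counting error. In LN-229, 0 of the 10 were past 0.5 in either direction (1.47% of genes higher, 0.993% lower).

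The other genes of the pathway were tested in the same fit. Of 9 further AP-1 factors, 17 early response genes, 27 genes of the cascade, 16 genes of the JNK and p38 branch and 4 EGF receptor ligands, 0 passed the threshold (limma), with 2, 2, 4, 3 and 1 at an unadjusted p under 0.05, beside 2.001% and 18.3% of all genes tested. Among the largest mean log2 changes of these lists were 0.37 for JUND (adjusted p = 0.182), 0.57 for IER3, an early response gene (0.0830), 0.36 for the adaptor GAB1 (0.174), -0.49 for MAPK8, which encodes JNK1 (0.0715), and -0.38 for EREG (0.126, all adjusted p from limma). Others were -0.34 for BATF3, 0.29 for NR4A2, -0.33 for the kinase MAPKAPK3 and 0.23 for the ligand HBEGF. GAB1 was higher in all 3 cell lines without passing, at 8.18 and 9.24 CPM in LN-229, 7.75 and 9.76 CPM in T98G and 8.0 and 13 CPM in U251.

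Of the 18 further ERK feedback and output genes, 1 rose and 1 fell, beside 0.413 and 1.59% of all genes tested. SPRY1, a Sprouty inhibitor like SPRY4, was at 0.838 and 1.45 CPM in LN-229, 2.88 and 5.55 CPM in T98G and 3.77 and 7.06 CPM in U251, and rose by 0.64 on the log2 scale (SE 0.14, adjusted p = 0.00756 from limma). DUSP10, a phosphatase of JNK and p38 rather than ERK, was at 15.4 and 8.73 CPM, 27.1 and 19.8 CPM, and 22.3 and 16.3 CPM in the same order, and fell by 0.54 (SE 0.14, adjusted p = 0.0392 from limma). Both moved the same way in 3 of 3 cell lines. Both calls were lost when each library was centred on its median, with changes of 0.72 for SPRY1 (adjusted p = 0.0929) and -0.46 for DUSP10 (adjusted p = 0.176), and that of DUSP10 also without LN-229 (-0.43, adjusted p = 0.178) or U251 (-0.59, adjusted p = 0.102, all from limma). Without T98G, where 0 of all genes passed, the changes were 0.59 and -0.59.

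Of 20 genes known as AP-1 targets, 5 fell and 0 rose, beside 1.59% lower over all genes, 2 of the 5 on the strength of T98G alone, and the median change was -0.33. The list was written with earlier results of these data known, that of CXCL8 among them. So neither its count beside that of all genes nor its direction is independent evidence on AP-1 targets. CXCL8, a chemokine, was at 363 and 352 CPM in LN-229, 43.9 and 12.1 CPM in T98G, and 13.2 and 2.36 CPM in U251 (-1.30, adjusted p = 0.000218 from limma). SPP1, the matrix protein osteopontin, was at 72.0 and 45.9, 12.2 and 7.84, and 322 and 178 CPM (-0.69, adjusted p = 0.00686 from limma).

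For the matrix metalloproteases of the list, T98G was the one cell line that reached 1 CPM, so they were tested only because of T98G and their calls rest on that 1 pair of libraries (without it -0.10 for MMP1 and -0.20 for MMP3). MMP1, the interstitial collagenase, was at 87.6 and 19.1 CPM in T98G and at or under 0.204 CPM elsewhere (-0.78, adjusted p = 0.0442 from limma), and MMP3, stromelysin, was at 38.4 and 9.47 CPM in T98G and at or under 0.498 CPM elsewhere (-0.77, adjusted p = 0.0243 from limma). In T98G, 19 of the 20 targets were lower with a median of -0.60, beside 79.3% of all genes, in U251 13 with a median of -0.13, beside 53.2% of all genes, and in LN-229 15 with a median of -0.10, beside 46.3%. Without T98G, 0 of the 20 passed, as of all genes, without LN-229 or without U251 4 each, and with each library centred on its median 1.

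**Figure D5:**
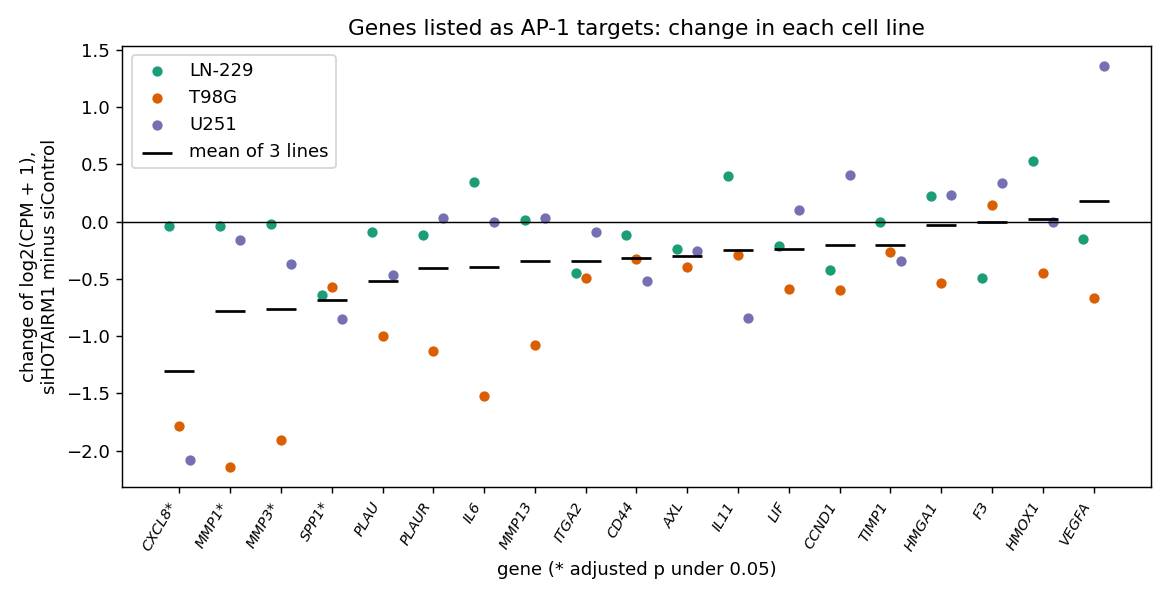
Change of log2(CPM + 1), siHOTAIRM1 minus siControl, of 19 of the 20 listed AP-1 targets in each cell line (points) with the mean of the 3 cell lines (bars), ordered by the mean; a star marks an adjusted p under 0.05 (limma). The T98G points of MMP1 (-2.14) and MMP3 (-1.91) lie far below those of the other cell lines, and the SPP1 points lie below 0 in all 3.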

How the data were processed

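The 6 libraries (TruSeq RNA v2 from 500 ng of total RNA, Illumina HiSeq, 101 cycles) were processed by the authors in Partek Flow: 13 bases were trimmed at the 5' end and 1 at the 3' end, reads were aligned to hg38 with STAR 2.4.1d and then Bowtie 2 2.2.5, and genes of Ensembl 84 were quantified by Expectation-Maximization. The deposited values are CPM with 0.0001 added to each of 59074 genes. They sum to 42.9 to 67.2% of the full scale. From the steps between low values the worth of 1 read was recovered. Of the values, 76.7 to 80.4% were whole reads within 0.05 of a read, so no count test was used. Intervals are 95% Wilson intervals, or those of a ratio of counts, and cover counting error only.

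Changes were tested with limma 3.58.1 (R 4.3.3, mean-variance trend) on log2(CPM + 1), a scale that understates changes of low genes, over the 14294 genes whose mean level reached 1 CPM and Benjamini-Hochberg adjustment, threshold 0.05. The cell line was the block, since libraries of a line correlated after removal of the condition means (r 0.948 to 0.967, other pairs -0.505 to -0.467). Cell lines were compared with the condition in the model. On simulated data with 200 changed genes the steps were tested. The genes and lists were chosen with earlier results of these data known. Named were the 10 genes, HOTAIRM1, of each list the genes past the threshold with 1 direction in all 3 cell lines (at most 5), else the 2 with the largest change, and the 5 genes most like DUSP6 and FOSL1; others are said to be picked later. Of the genes this names, 2 were tested and counted with the others and are not reported here. Of 123 list symbols, 2 were matched through RefSeq synonyms. Positions and lengths are from GENCODE v44, a later annotation than the authors'. Alternatives were other pseudocounts, filters, scalings and models, and each line or library left out.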

Additional observations from a re-analysis of the deposited data

Results flagged for a closer look

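The change on knock-down pointed in opposite directions in different cell lines, beyond counting error in each on the deposited scale, for several of the genes. The opposite signs held under every scaling and pseudocount tried, but counting error was not computed again there. None of these differences was tested, since each cell line had 1 library per condition. The differences of the log2(CPM + 1) changes were as follows. For FOSL1, the change in T98G minus that in LN-229 was -0.96, and that in U251 minus that in T98G was 1.15. For DUSP5, U251 minus LN-229 was 0.71 and U251 minus T98G was 1.09. U251 minus T98G was 0.85 for FOSL2 and 0.74 for JUN. T98G minus LN-229 was -0.71 for JUNB and -0.66 for DUSP4. For DUSP6, U251 minus LN-229 was 0.28. JUNB in LN-229 and U251 is left out, since its change in U251 turned to 0.060 after rescaling. Of these 9 differences, 8 are larger than 0.6 on the log2 scale, and 7 involve T98G, where the median of all genes tested was -0.19. The share of all genes tested that meets the same rule was not computed, so the 9 cannot be called particular to these genes. By sign alone, 30.3% of all genes tested were lower in T98G and higher in U251.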

How the results depend on the processing

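Under every alternative tried, 0 of the 10 genes passed the threshold on knock-down. Among all genes the count (286) moved to 0 without the cell line block (29 at an unadjusted p under 0.05), to 683 with a pseudocount of 0.1, 0 of 35981 without a filter (2520 unadjusted), 607 with a filter at 5 CPM, 41 with centred libraries, 25 with libraries rescaled to the listed sum, 0 with the paired t-statistic (896 unadjusted) and 185 without the trend, and with a cell line left out it ran from 0 (without T98G, 1206 unadjusted) to 270. Of the calls, 20.6% were higher, and 36.6% after centring or 40.0% after rescaling. The block was kept because the paired libraries of a line deviated together. Without T98G, the mean changes that missed the threshold took the other sign for FOSL1 (0.17), FOSL2 (0.19), JUN (0.07), JUNB (0.03) and DUSP4 (0.06).

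Between T98G and LN-229, 3 of the 10 genes passed without a filter (FOSL1, FOSL2 and JUNB did not), in place of 6, and the count over all genes (7851) ran from 5107 (without the siHOTAIRM1 library of T98G) to 8046 with a library left out, an alternative chosen after the data were seen. The JUNB change in U251 reversed to 0.060 after rescaling. Of the calls between U251 and LN-229, 60.5% were higher, and 38.1% after rescaling; between U251 and T98G, 64.0 and 40.8%. The cause was not tested. Depth limited FOS in U251, with 14 and 34 reads.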
